A study of Mus musculus with 9 samples.

Results

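The 8 genes described here encode proteins of the manchette and of the apparatus that couples the sperm head to the tail. They were taken as a list of gene names, with no threshold on a measured value, and were Hook1, Rimbp3, Meig1, Lrguk, Ccdc42, Cep131, Spata6 and Sun5. This list and the others below were chosen with earlier results of these data known. Their counts beside the shares of all genes are therefore descriptions only. All 8 were among the 23074 genes of the count table, and all 8 were in the 15613 that passed the filter on low counts. The samples were whole testes without their capsule, taken from 5 wild type and 4 Rfx2-/- mice on postnatal day 29 or 30. In the Rfx2-/- animals, exon 7 of Rfx2 had been removed by breeding to mice with a universally active Cre recombinase, which takes away most of the DNA-binding domain of this transcription factor. A mixed line with contributions of 129/Sv, C57BL/6 and FVB/N and a line backcrossed to C57BL/6 were kept, and which of them gave these animals was not given in the sources used here. Values are given as CPM, that is, read counts per 1000000 counts of the library after scaling of the library totals by TMM.

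The manchette is a transient skirt of microtubules that surrounds the nucleus of an elongating spermatid, shapes it, and carries cargo toward the growing tail. It begins to form as round spermatids mature, and is dismantled before the sperm is released. The coupling apparatus forms next to it, where the centrioles dock to the nuclear envelope and the connecting piece of the neck is assembled. Loss of either structure is known to leave sperm with misshapen or detached heads, or without a tail.

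RFX factors bind the X-box, an imperfect palindrome of the arm GTTNCC and its reverse complement GGNAAC, while the spermatid factor CREM binds the cAMP response element, of which TGACG is an arm. Promoters from RefSeq, running from 250 bases before to 50 after each start, were found for 7 of the 8 genes. Rimbp3 was not matched. The sequences below are shown because they hold the matches of the genes whose level differed between genotypes, Ccdc42 and Cep131, and for comparison those of Meig1 and Lrguk. Each runs 5′ to 3′ on the strand of its gene. Capitals mark TGACG or CGTCA and the runs that hold GTTGC or its reverse complement GCAAC.

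Ccdc42 (GRCm38.p6, chr11:68586787-68587036, + strand): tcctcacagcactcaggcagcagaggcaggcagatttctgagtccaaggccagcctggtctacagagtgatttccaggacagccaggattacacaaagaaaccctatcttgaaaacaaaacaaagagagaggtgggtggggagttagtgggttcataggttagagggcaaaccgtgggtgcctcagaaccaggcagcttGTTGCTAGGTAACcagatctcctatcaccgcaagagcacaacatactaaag

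Cep131 (GRCm38.p6, chr11:120086798-120086897, - strand): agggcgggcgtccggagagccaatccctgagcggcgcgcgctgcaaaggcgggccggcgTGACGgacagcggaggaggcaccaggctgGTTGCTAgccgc

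Meig1 (GRCm38.p6, chr2:3419081-3419110, - strand): gccgagcggCGTCAcggcGTTGCTAggaga

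Lrguk (GRCm38.p6, chr6:34029348-34029447, + strand): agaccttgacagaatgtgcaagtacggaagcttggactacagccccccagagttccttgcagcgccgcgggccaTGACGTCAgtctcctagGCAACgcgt

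No promoter of the 7 genes held the full X-box with 0 to 3 bases between its arms, which 0.804% of the 32851 promoters in the table did, searched on both strands. A looser pattern, GTTNC and its reverse complement GNAAC with 2 to 5 bases between, was present in 2.69% of promoters. Among these genes it was found in that of Ccdc42, from base -51 to base -39 relative to the start. The 7 letters GTTGCTA occurred in 3.66% of promoters and in 3 of these genes. They lay from -51 to -45 in Ccdc42, inside the looser X-box, from +19 to +25 in Cep131, and from +38 to +44 at the second of the 3 Meig1 starts. The Lrguk promoter held TGACG and its complement overlapping from -26 to -19, with GTTGC on the opposite strand from -9 to -5. Single arms are common, with TGACG in 20.8% of promoters, GTTNCC in 45.3% and GTTGC in 35.2%. Of the genes described here, only Spata6 and Lrguk are listed by the study with an RFX2 peak at the promoter. Those peaks came from germ cells of wild type mice at P21 (P for postnatal day). Ccdc42 and Cep131 are not on that list. Hook1 is listed as a CREM target, although the Hook1 window held no TGACG. Spata6, Lrguk and Hook1 were not called in the whole testes of postnatal day 29 or 30. The search for GTTGC, for the longer GTTGCTA and for the looser X-box was added after the sequences had been read, and a match is a description of letters, not of binding.

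Rfx2 was first examined to check the labels. Its level was 559.7, 551.5, 470.9, 540.7 and 623.8 CPM in the wild type libraries, and 199.2, 61.51, 151.1 and 172.7 CPM in the Rfx2-/- libraries. Every Rfx2-/- library was below every wild type library, in the direction of the labels, and the mean fell to 26.6% of wild type. Counts were over the whole gene and do not measure exon 7 itself.

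Total counts per library ran from 13574764 to 14381047 in wild type, and from 13605958 to 15193330 in 3 of the Rfx2-/- libraries, with 28800855 in Rfx2-/- library 1. Rfx2-/- library 2 stood apart from the other 3. Its mitochondrial genes took 1.75% of counts against 0.846 to 0.951%. Its level relative to the mean of the other Rfx2-/- libraries also depended on exon length, with a median log2 ratio of 0.55 over 3724 genes under 2 kb and -0.90 over 1168 genes of 8 kb or more. Genotype differences of the 8 genes are therefore given with and without it. For other listed genes named here and for list medians, they are given where leaving it out changed a call or a direction. They are also given where leaving it out moved the value by more than 1.5 times.

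Among the 8 genes, 2 were lower in Rfx2-/- testes and none was higher by the criterion used for calls, an adjusted p at or under 0.01 with more than 2-fold change in edgeR's quasi-likelihood test. Ccdc42 and Cep131 fell. Of all 15613 genes tested, 3.68% were called lower and 0.826% were called higher. With no fold limit and an adjusted p at or under 0.05, Ccdc42 and Cep131 again passed, against 7.31% of all genes lower and 3.48% higher. Every Rfx2-/- library was below every wild type library for 2 of the 8 genes, again Ccdc42 and Cep131, compared with 9.7% of all genes. Sun5 was the 1 gene of the 8 for which every Rfx2-/- library was above every wild type library, compared with 6.16% of all genes. The median log2 fold change was -0.10 over the 8 genes and 0.03 over all genes tested, and without Rfx2-/- library 2 these were -0.29 and 0.04. In whole testis, fewer cells of a type and less RNA per cell cannot be told apart.

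**Figure D1:**
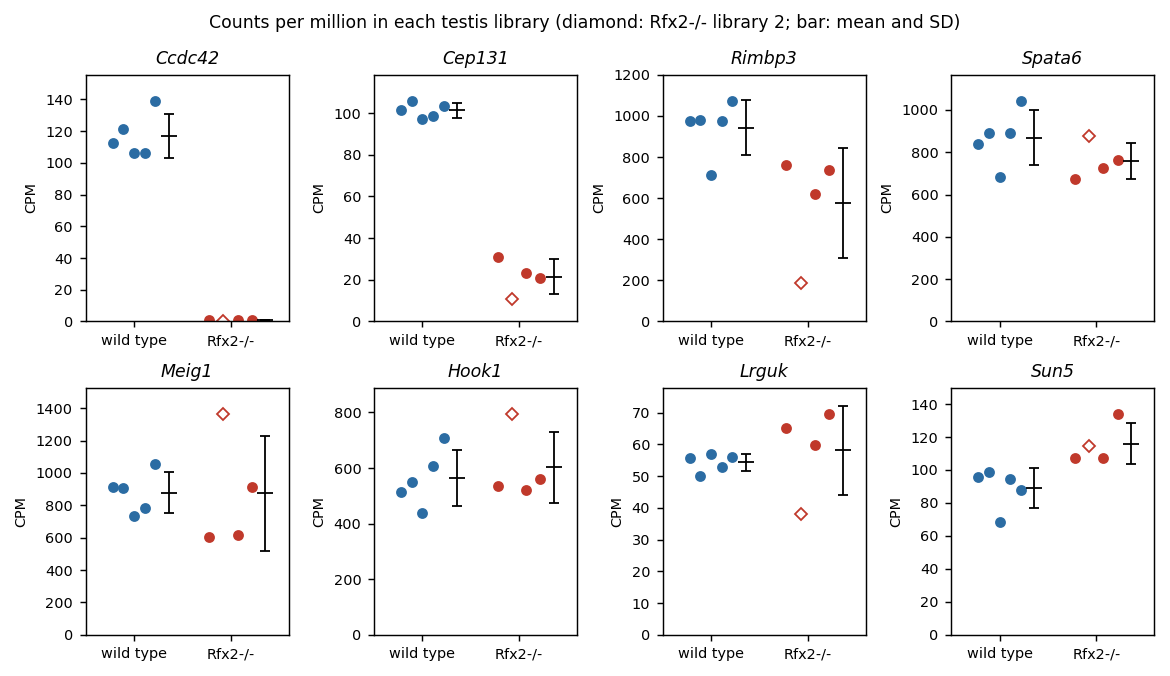
CPM (vertical axes, each from 0) of the 8 genes in each of 5 wild type and 4 Rfx2-/- testis libraries, with the mean and SD beside the points and Rfx2-/- library 2 as an open diamond. Ccdc42 and Cep131 separated by genotype with a wide gap, Sun5 separated narrowly in the other direction, and library 2 was an extreme of its genotype for 7 of the 8 genes.

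Ccdc42 showed by far the largest difference of the 8 genes. It encodes a coiled-coil protein of the manchette, the connecting piece and the tail, known to be needed for the head-tail coupling apparatus and for male fertility in mice. The gene (ENSMUSG00000045915) lies on the plus strand at chr11:68587021-68597966 of GRCm38 and has 7 merged exons. Its raw counts were 1474, 1564, 1601, 1437 and 1783 in wild type. In the Rfx2-/- libraries they were 26, 8, 14 and 18, all above the limit of 3 counts that a reading of 0 would allow.

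In CPM, Ccdc42 stood at 112.7, 121.1, 106.4, 106 and 139 in the wild type libraries, a mean of 117.1 ± 13.73 (SD, n = 5). In Rfx2-/- it stood at 0.8635, 0.5349, 0.9541 and 1.178, a mean of 0.8825 ± 0.2667 (SD, n = 4). No Rfx2-/- library came near the wild type range, and the Rfx2-/- mean was 0.754% of wild type. The log2 fold change was -7.04 (SE 0.23, 95% interval -7.53 to -6.55, adjusted p = 3.41e-09), and it was the 16th lowest of the 15613 genes tested. Without Rfx2-/- library 2 it was -6.90.

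Cep131 fell less far. Its protein, also called AZI1, sits on centriolar satellites and basal bodies and is known to be needed for the sperm flagellum in mice. The gene (ENSMUSG00000039781) lies on the minus strand at chr11:120064430-120086827 with 26 merged exons, of which 0.586% of bases also belong to the miRNA gene Gm25948. The wild type libraries held 101.3, 105.8, 97.07, 98.81 and 103.5 CPM, and the Rfx2-/- libraries 30.82, 10.56, 23.31 and 20.87 CPM.

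The wild type values of Cep131 were the most even of the 8 genes, with a coefficient of variation of 3.46% against 39.12% in Rfx2-/-. The means were 101.3 ± 3.505 CPM (SD, n = 5) and 21.39 ± 8.368 CPM (SD, n = 4), so that 21.11% of the wild type level was left, a 4.72-fold difference. The log2 fold change was -2.24 (SE 0.25, 95% interval -2.78 to -1.70, adjusted p = 7.27e-05), the 240th lowest of all genes tested. Without Rfx2-/- library 2, in which Cep131 was lowest, it was -2.01 (adjusted p = 1.73e-07).

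The level of Ccdc42 over the 9 libraries was most like that of Bean1, 1700012P22Rik and Apobec4, with Pearson correlations of log2 CPM of 0.9989, 0.9985 and 0.9983. For Cep131 the closest genes were Dnah10, a dynein heavy chain of motile cilia, Ttll6, a tubulin polyglutamylase, and Adarb1, an RNA-editing enzyme, at 0.9972, 0.9960 and 0.9960. All 6 were themselves called lower, with log2 fold changes from -9.38 for 1700012P22Rik to -1.22 for Adarb1. These correlations describe points that share the split between genotypes, and they were not tested.

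Rimbp3 had the next lowest value, but its groups overlapped. It encodes a protein of the manchette that binds HOOK1, and its gene (ENSMUSG00000071636) is a single exon on the plus strand at chr16:17208603-17213982. The wild type libraries held 977, 978.3, 714.8, 975.4 and 1073 CPM, and the Rfx2-/- libraries 761.9, 189.2, 620.3 and 735.4 CPM. Wild type library 3 lay below 2 of the Rfx2-/- libraries, while Rfx2-/- library 2 lay far below the rest.

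The mean of Rimbp3 was 943.7 ± 134.6 CPM (SD, n = 5) in wild type and 576.7 ± 265.5 CPM (SD, n = 4) in Rfx2-/-, or 61.11%. The log2 fold change of -0.71 (SE 0.32) did not pass the test (adjusted p = 0.179). Without Rfx2-/- library 2 it was -0.42, with a 95% interval from -0.72 to -0.11 and an adjusted p of 0.0645, so a single library set much of its size. With limma voom and sample quality weights, which gave library 2 a weight of 0.101, the value was -0.56 (adjusted p = 0.0246), still under the 2-fold limit.

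Hook1 did not pass the test. It encodes a linker between manchette microtubules and other cell structures, and is the gene mutated in the azh mouse with abnormal sperm heads. It lies on the plus strand at chr4:95967240-96025413 (ENSMUSG00000028572). Its CPM was 515.3, 551.1, 436.6, 607.6 and 708.4 in wild type and 534.1, 793.3, 522 and 560.3 in Rfx2-/-. The ranges overlapped, and the highest of all 9 values was that of Rfx2-/- library 2. The log2 fold change was 0.10 (SE 0.18, 95% interval -0.30 to 0.49, adjusted p = 0.764), and -0.06 without that library, so a 2-fold difference lay outside the interval either way. Of its exon bases 5.05% overlap the antisense transcript 9530080O11Rik, and whether counting used strand was not given in the sources used here.

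Meig1, whose protein is found at the manchette and is known to be needed for spermiogenesis, did not pass the test either. Its gene (ENSMUSG00000026650) lies on the minus strand at chr2:3409043-3422648. The wild type libraries held 914.2, 906.5, 734.2, 784.5 and 1054 CPM. The Rfx2-/- libraries held 605.3, 1362, 615.6 and 913.8 CPM and so spanned the whole wild type range, with library 2 highest. The means of 878.7 ± 125.2 (SD, n = 5) and 874.3 ± 355.5 CPM (SD, n = 4) gave a log2 fold change of -0.01 (SE 0.24, 95% interval -0.53 to 0.51, adjusted p = 0.988). Without Rfx2-/- library 2 it was -0.30, with an interval from -0.65 to 0.05.

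Lrguk encodes a leucine-rich repeat and guanylate kinase domain protein of the manchette and basal body that binds HOOK proteins. It lies on the plus strand at chr6:34029448-34134034 (ENSMUSG00000056215). Its 55.66, 50.1, 56.98, 52.87 and 55.91 CPM in wild type compared with 65.03, 38.11, 59.7 and 69.48 CPM in Rfx2-/-. Of the Rfx2-/- libraries, 3 were above the wild type range and library 2 was below it. The log2 fold change was 0.10 (SE 0.17, 95% interval -0.27 to 0.46, adjusted p = 0.733), and 0.25 without library 2, with an interval from 0.05 to 0.46 and an adjusted p of 0.0995.

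Spata6, which is needed to build the connecting piece of the sperm neck, lies on the plus strand at chr4:111719984-111829184 (ENSMUSG00000034401). Its levels were 837, 892.3, 681.4, 891.8 and 1042 CPM in wild type and 673.7, 875.6, 725.7 and 764.7 CPM in Rfx2-/-. The groups overlapped, and the Rfx2-/- mean was 87.47% of wild type. The log2 fold change was -0.19 (SE 0.16, 95% interval -0.53 to 0.15, adjusted p = 0.442). Without Rfx2-/- library 2 it was -0.27, with an interval from -0.56 to 0.02.

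Sun5 encodes a protein of the nuclear envelope that anchors the coupling apparatus to the head, and its gene (ENSMUSG00000027480) lies on the minus strand at chr2:153856188-153871084. The wild type libraries held 95.65, 98.73, 68.28, 94.68 and 87.56 CPM. The Rfx2-/- libraries held 107.4, 114.5, 107.5 and 133.8 CPM, all above the wild type range. The means were 88.98 ± 12.27 CPM (SD, n = 5) and 115.8 ± 12.47 CPM (SD, n = 4). Although the groups did not overlap, the log2 fold change of 0.38 (SE 0.14, 95% interval 0.07 to 0.70) did not pass the edgeR test (adjusted p = 0.115). Without Rfx2-/- library 2 it was 0.39, with an interval from 0.10 to 0.67 and an adjusted p of 0.0677. With all libraries it was 0.52 with library totals alone as the scaling (adjusted p = 0.0239) and 0.25 with the trend of exon length removed (adjusted p = 0.259).

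**Figure D2:**
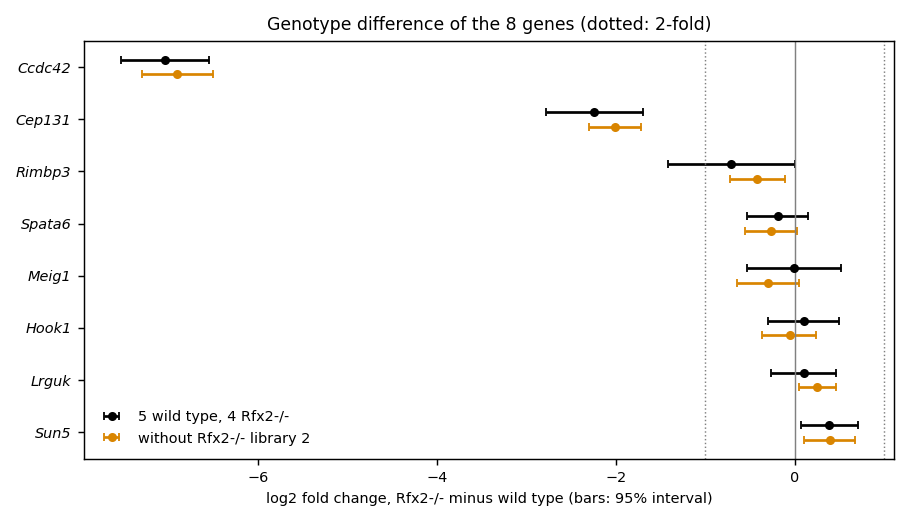
Log2 fold change of the 8 genes, Rfx2-/- minus wild type (horizontal axis), with 95% intervals, from all 9 libraries (black) and without Rfx2-/- library 2 (orange). Ccdc42 at -7.04 and Cep131 at -2.24 lay beyond the dotted 2-fold lines with and without library 2, Hook1 moved from 0.10 to -0.06 and Meig1 from -0.01 to -0.30.

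In Rfx2-/- library 2, the shift of a gene did not follow its exon length alone. The log2 ratio of library 2 to the mean of the other Rfx2-/- libraries was 0.94 for Meig1, with 1.10 kb of merged exons, but -0.90 for Ccdc42, with 1.48 kb, where the median of genes under 2 kb was 0.55. Among genes of 4 to 8 kb the median was -0.44, while Hook1 stood at 0.56 and Rimbp3 at -1.90. Cep131 stood at -1.24 beside a median of 0.03 for genes of 2 to 4 kb. The Ccdc42 ratio rests on 8 counts in library 2. The class medians were computed with 0.5 CPM added to both terms, and the ratios of the 8 genes without it. This matters most for the low level of Ccdc42. What sets library 2 apart was not tested.

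**Figure D3:**
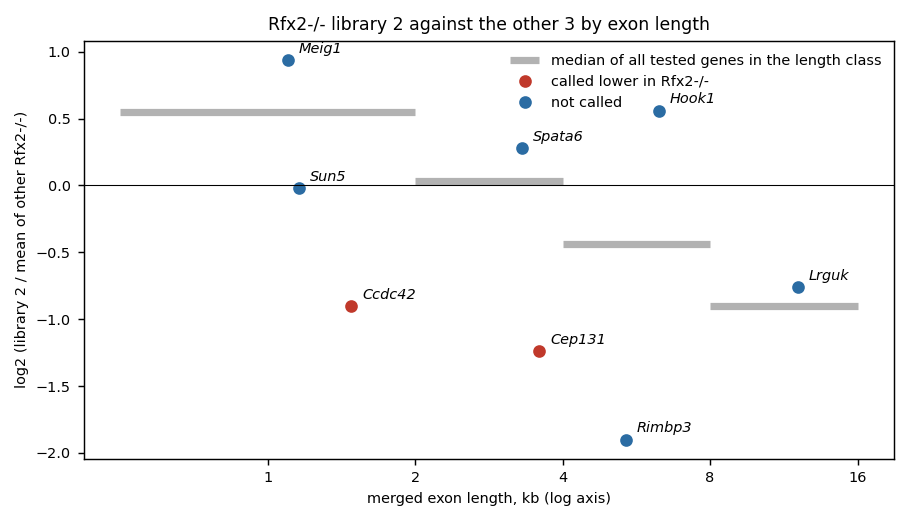
Log2 ratio of Rfx2-/- library 2 to the mean of the other 3 Rfx2-/- libraries (vertical axis) against merged exon length in kb (log axis), for the 8 genes (points) and as the median of all tested genes in 4 length classes (grey bars). Medians fell from 0.55 under 2 kb to -0.90 at 8 kb and above, while Ccdc42, Cep131, Rimbp3 and Sun5 lay below the bar of their class and Hook1, Meig1, Spata6 and Lrguk above it. The bars were computed with 0.5 CPM added to both terms, the points without it.

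Wild type library 3 was the lowest of the 5 wild type libraries for 6 of the 8 genes, and library 5 the highest for 5 of them. The same libraries were the extremes of 9 genes listed as markers of elongating spermatids, with summed levels of 7601 CPM in library 3 and 16407 CPM in library 5. In the Rfx2-/- libraries this sum was 5981, 9816, 6928 and 6395 CPM, so that the groups overlapped through Rfx2-/- library 2 and wild type library 3. The paper reports that Rfx2-/- spermatids arrest before elongation and that no manchette is seen in them. In the multinucleated cells it describes dense clusters of microtubules, and proposes that these may be an ectopic manchette. The paper counts Tnp1 and Tnp2 mRNA among transcripts already there late in the round stage. The sum is therefore not a measure of elongating cells. None of the 9 genes was called. Their median log2 fold change was -0.77, and 8 were below 0, as were 46.9% of all genes tested. In edgeR 4 were lower with an adjusted p at or under 0.05, against 7.31% of all genes. These were the protamine genes Prm1 at -1.21 (adjusted p = 0.0156) and Prm2 at -1.10 (adjusted p = 0.021), the transition protein gene Tnp1 at -1.12 (adjusted p = 0.0416) and Akap4, of the fibrous sheath, at -0.82 (adjusted p = 0.00988). Akap4 was the 1 gene of the 9 whose groups did not overlap, beside 9.7% of all genes, and Hils1 was highest at 0.42. Without Rfx2-/- library 2, Prm1 at -1.49, Prm2 at -1.35, Tnp1 at -1.51 and Tnp2 at -1.04 were called lower, 4 of the 9 against 4.01% of all genes, and Hils1 stood at 0.18. From its RNA-Seq the paper states that Tnp1 and Tnp2 mRNA are not reduced in Rfx2-/- mice. With all libraries neither was called here, at -1.12 and -0.77. Without library 2 both were called lower, which differs from that statement. All 9 genes were read in every library. The part of cell makeup in the values of Ccdc42, Cep131 and Rimbp3 was not tested.

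Genes of other testis cells were also listed, and none passed the criterion for a call, with or without Rfx2-/- library 2. Over 7 round spermatid genes the median log2 fold change was 0.30, from -0.14 for Acr to 0.54 for Spaca3, and their summed levels were 895.5 to 1196 CPM in wild type and 1102 to 1384 CPM in Rfx2-/-. Over 8 genes of pachytene spermatocytes the median was 0.16, from -0.23 for Ybx2 to 0.72 for Sycp1, but 0.04 without library 2, and the sums were 7549 to 9228 CPM and 7200 to 10702 CPM.

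Among somatic cells, 6 Sertoli cell genes ran from -0.04 for Sox9 to 0.70 for Rhox5 on the log2 fold change scale, with a median of 0.24 and sums of 1056 to 1319 CPM in wild type and 1080 to 1555 CPM in Rfx2-/-. For 5 Leydig cell genes, from Cyp11a1 at -0.20 to Star at 0.57, the median was 0.20, and 0.09 without library 2, with sums of 679.4 to 856.3 CPM and 649.2 to 1019 CPM. The median of 4 peritubular genes, from Myh11 at -0.25 to Cnn1 at 0.88, was 0.13, with sums of 192.8 to 218.9 CPM and 145.2 to 282.4 CPM. The median of 4 macrophage genes, from Csf1r at -0.12 to Cd68 at 0.38, was -0.02 and turned to 0.13 without library 2, with sums of 35.99 to 50.47 CPM and 30.29 to 50.98 CPM. Without library 2, Acr at 0.04, Sox9 at 0.14, Myh11 at 0.02 and Csf1r at 0.02 turned above 0. Sycp1 stood at 0.35, Rhox5 at 0.40, Cnn1 at 0.58, Cd68 at 0.22, Ybx2 at -0.39 and Cyp11a1 at -0.13. Insl3, at 0.20 with all libraries, was then the lowest Leydig cell gene at -0.20. No marker was at 0 in any library.

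To compare genes with each other, CPM was divided by the kilobases of merged exons. In wild type testes Meig1 was highest at 797.4 ± 113.6 CPM per kb (SD, n = 5), followed by Spata6 at 263.5 ± 39.28 and Rimbp3 at 175.4 ± 25.03 CPM per kb. Hook1 at 89.82 ± 16.23, Ccdc42 at 78.93 ± 9.255 and Sun5 at 76.91 ± 10.61 CPM per kb were within their spread of each other. Cep131 at 28.27 ± 0.9783 and Lrguk at 4.5 ± 0.2318 CPM per kb were lowest.

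In Rfx2-/- testes the order by level per kb began with Meig1 (793.4 ± 322.6 CPM per kb) and Spata6 (230.5 ± 25.98 CPM per kb). Rimbp3 (107.2 ± 49.36), Sun5 (100.1 ± 10.77) and Hook1 (95.97 ± 20.43 CPM per kb) overlapped each other. Cep131 at 5.97 ± 2.335 CPM per kb came within the spread of Lrguk at 4.813 ± 1.152, and Ccdc42, level with Hook1 and Sun5 in wild type, was lowest at 0.5951 ± 0.1798 CPM per kb. The coefficient of variation was larger in Rfx2-/- than in wild type for 6 of the 8 genes, Spata6 and Sun5 being the exceptions. Over all genes tested its median was 12.86% in wild type and 26.3% in Rfx2-/-.

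**Figure D4:**
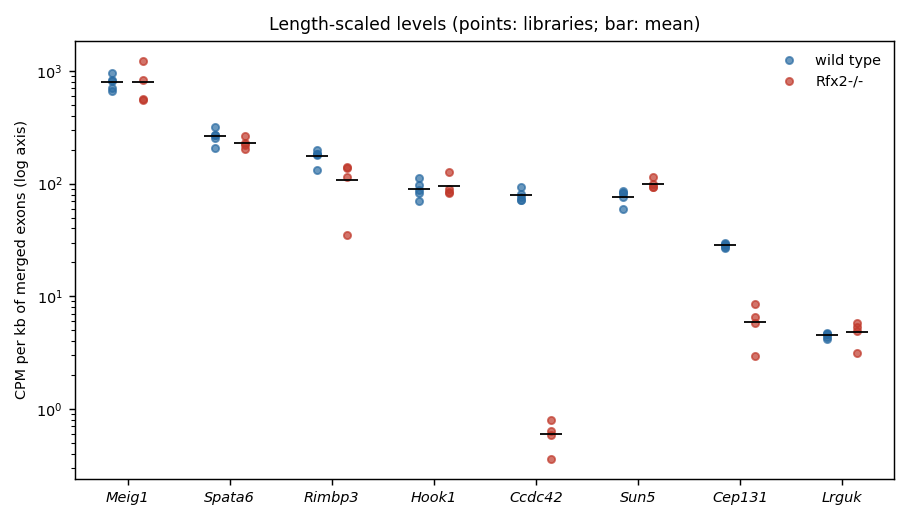
CPM per kb of merged exons (vertical log axis) of the 8 genes in 5 wild type (blue) and 4 Rfx2-/- (red) libraries, with a bar at each mean, ordered by the wild type level. Ccdc42 moved from 78.93 to 0.5951 CPM per kb and Cep131 from 28.27 to 5.97, while the 2 genotypes overlapped for Meig1, Spata6, Rimbp3, Hook1 and Lrguk.

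Among 21 other genes of the manchette, 4 fell and none rose, where 3.68% of all genes tested were called lower and 0.826% higher. Their median was -0.21, and 16 of the 21 had log2 fold changes below 0, as did 46.9% of all genes. Spef2, a flagellar protein needed for intramanchette transport, was at 70.65, 72.56, 63.16, 86.87 and 83.04 CPM in wild type and at 3.022, 1.939, 1.772 and 2.29 CPM in Rfx2-/-, a log2 fold change of -5.03 (SE 0.20, adjusted p = 1.38e-08). Dnali1, an axonemal dynein light intermediate chain that also acts at the manchette, ran from 196.3 to 247.6 CPM in wild type and from 59.24 to 82.39 CPM in Rfx2-/- (log2 fold change -1.66, SE 0.15, adjusted p = 1.20e-05).

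Ccdc146, a centriolar and microtubule-associated protein, ran from 87.1 to 131 CPM in wild type and from 27.28 to 49.95 CPM in Rfx2-/- (log2 fold change -1.59, adjusted p = 0.00019). Cfap43, a flagellar protein, ran from 389.2 to 474.2 CPM in wild type and from 182.3 to 242.7 CPM in Rfx2-/- (log2 fold change -1.07, adjusted p = 0.00034). In each of these 4 genes the groups were separate. Several of these proteins also serve the axoneme of the tail. Ccdc181, at -0.58 (edgeR, adjusted p = 0.0243), was separate too but not called. That made 5 of the 21 separate and lower, beside 9.7% of all genes. The highest value of the list was 0.43 for Katnal2, a katanin-like protein, which did not pass the test (adjusted p = 0.0603). Katnal2 was the 1 gene of the 21 that was separate and higher, beside 6.16% of all genes. Without Rfx2-/- library 2 it stood at 0.48 (edgeR, adjusted p = 0.00987), under the 2-fold limit.

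Of 11 other genes of the neck and coupling apparatus none was called. Their median was -0.17, from -0.74 (SE 0.19, adjusted p = 0.0262) for Odf1, an outer dense fiber protein, to 0.58 (SE 0.22, adjusted p = 0.111) for the centrosomal gene Cep112, which stood at 0.37 without Rfx2-/- library 2. With all libraries, Odf1 was the 1 gene of the 11 with an adjusted p at or under 0.05, where 7.31% of all genes were lower at that limit. Without Rfx2-/- library 2, Spem1 was lowest at -0.93 (edgeR, adjusted p = 0.0125), against -0.57 (adjusted p = 0.223) with all libraries. Odf1 was then at -0.73 (adjusted p = 0.0163), and again none of the 11 was called.

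None of 9 paralogs of the 8 genes was called, and 8 were below 0, as were 46.9% of all genes. The lowest was Tspoap1, a relative of Rimbp3, at -1.47 (SE 0.32, adjusted p = 0.0105), just above the limit on the adjusted p, and the highest was Hook3 at 0.14, or 0.24 without Rfx2-/- library 2. Hook2 had an adjusted p of 0.0074 but a log2 fold change of -0.72, under the 2-fold limit. Another paralog, Spata6l, was not matched. Of 10 known binding partners of the 8 genes, which overlap the other lists and include Hook1 and Rimbp3, 2 were called lower, Dnali1 and Dnajb13, beside the 3.68% of all genes. Dnajb13, a chaperone of the sperm tail, fell from 245.6 ± 47.59 CPM (SD, n = 5) to 96.21 ± 23.97 CPM (SD, n = 4), with a difference of -1.35 on the log2 scale (edgeR, adjusted p = 0.000904).

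**Figure D5:**
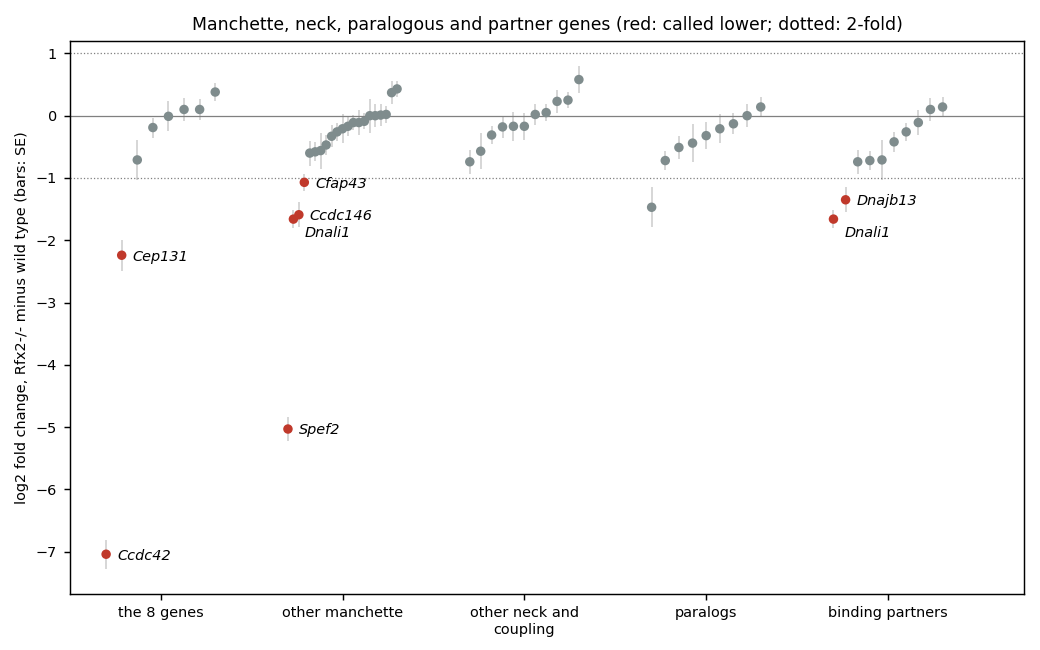
Log2 fold change, Rfx2-/- minus wild type (vertical axis), with SE, of each gene in 5 lists: the 8 genes, 21 other manchette genes, 11 other neck and coupling genes, 9 paralogs and 10 binding partners, ordered within each list. Genes called lower are red, Ccdc42 at -7.04 and Spef2 at -5.03 lay farthest from 0, and no gene of the 5 lists was called higher.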

How the data were processed

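Testis RNA of 5 wild type and 4 Rfx2-/- mice was analysed. The authors aligned 50-base single reads to GRCm38 (STAR 2.4 and featureCounts 1.4.6 in the submitters' processing notes) and deposited raw counts per gene over merged exons of protein coding isoforms, discarding multi-mapping reads and reads shared by genes. Replicate numbers follow accession order and pair nothing. Where nothing states otherwise, p-values measure only the spread between these libraries.

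The 23074 genes were filtered by filterByExpr, scaled by TMM and tested with robust quasi-likelihood in edgeR 4.0.16 (R 4.3.3), adjusted over 15613 genes by Benjamini-Hochberg. Called means adjusted p at or under 0.01 and over 2-fold. Alternatives used DESeq2 1.42.0, limma 3.58.1, other scaling, no filter, thinning of the deep library, removal of an exon length trend and leaving out each library. The list medians without Rfx2-/- library 2 were added after seeing the data. The fitting script was tested on simulated data. Intervals of log2 fold changes are the SE times the t quantile at 95%. Counting floors cover counting error only. Correlations used log2(CPM + 0.5). IDs matched GENCODE M21 for 96.6% of genes, and promoters came from RefSeq.

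All 8 genes were named. In the other lists, each called gene was named, otherwise the lowest and highest. Genes chosen after their values were seen were named as well (Prm2, Tnp1, Tnp2, Akap4, Ccdc181, Hook2, Insl3, Spem1). Members and lists were chosen with earlier results of these data known.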

Additional observations from a re-analysis of the deposited data

Results flagged for a closer look

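Over 20 groups of 4 or 5 libraries examined for a sample far from the others, 3 were marked, where chance gives about 1. Hook1 stood at 793.3 CPM in Rfx2-/- library 2, while the other Rfx2-/- libraries lay between 522 and 560.3 CPM. Rimbp3 stood at 714.8 CPM in wild type library 3, with the other wild type libraries at 975.4 to 1073 CPM. The total count of Rfx2-/- library 1 was 28800855, against 13605958 to 15193330 in the others.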

How the results depend on the processing

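Ccdc42 and Cep131 were called lower under all 17 alternatives, with log2 fold changes of -7.16 to -6.89 and -2.44 to -2.01, and 2 of the 8 genes were lower in each. Rimbp3 ranged from -0.84 to -0.42, Lrguk from 0.03 to 0.32, Spata6 from -0.28 to -0.05 and Sun5 from 0.25 to 0.52. Hook1 turned to -0.06 with limma voom and without Rfx2-/- replicate 2, ranged from -0.06 to 0.19 over the libraries left out, and stood at 0.24 with library totals and 0.30 with the length trend removed. Meig1 turned to 0.01 with RLE factors or no filter and 0.14 with library totals, ranged from -0.30 to 0.17 over the libraries left out, and stood at -0.31 with limma voom and -0.22 with the length trend removed. The cause was not tested. Over all genes, 575 were called lower and 129 higher. With glmTreat these counts were 272 and 29, and at adjusted p 0.05 with no fold limit 1142 and 544, which follows from the criterion. DESeq2 called 211 higher. No paired analysis was possible because the labels do not give litters. The paper states that littermates of matched age were used where possible, so related animals may be among these samples. Depth limits the low counts of Ccdc42 in Rfx2-/-.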
